A study of Rattus norvegicus with 12 samples.

Results

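The enzymes described here belong to the routes that make NADPH and cytosolic acetyl-CoA: *Me1*, *Idh1*, *Idh2*, *Pgd*, *Tkt*, *Taldo1*, *Acly* and *Mdh1*. These 8 genes were listed by name, with earlier results of these data known but no limit set on their signals, and every probe set annotated to 1 of these symbols was taken. That gave 8 of 10411 genes with an unambiguous probe set, and 11 of the 15923 probe sets of the Affymetrix RAE230A rat array, of which 10 passed the filter on low signals and were tested. The remaining one, *Tkt* 1367611_at, had signals between 5.1 and 71.5 and was left out, as were 3 probe sets annotated jointly to *Pgd* and other genes (1375060_at, 1387337_at and 1388034_at). *Me1*, *Idh1* and *Acly* were also picked by the study on these samples, so their direction is not independent evidence. The same holds for *Idh3a*, *Gyg1* and *Nefl* (by another probe set), which are named below and which the study listed as higher in resistant neurons.

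Neurons were collected by laser capture microdissection, in which stained cells are lifted from a brain section, from untreated Fisher 344/BN F1 rats that were 6 months old. The regions were the hippocampal CA1 pyramidal layer (CA1), the cerebellar granule cell layer (CbG), frontal cortex layers IV to VI (CTX) and the hippocampal CA3 pyramidal layer (CA3), with 3 arrays each, labelled as biological replicates. CA1 and CbG form the group vulnerable to oxidative stress (VUL, 6 arrays), and CTX and CA3 the resistant group (RES, 6 arrays); the comparison asks what distinguishes them before any stress is applied. A capture takes small pieces of tissue, so that neighbouring glia and processes can be lifted with the neurons, and a lower signal can come from fewer cells of a type or from less RNA per cell, which cannot be told apart. The p-values rest on the spread between arrays of a region, less differences between replicate numbers, pooled over the 4 regions and shared across probe sets. There were 3 arrays per region, or 2 for CbG and CA3 where 2 arrays are left out below. These numbers limit the precision of every value.

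The values are MAS5 signals, a linear intensity per probe set that was scaled to 1 target per array. Array medians lay between 145.5 and 199.3. A probe set was called when its adjusted p (limma, Benjamini-Hochberg over all probe sets tested) was under 0.05 and its difference was at least 1.5-fold. Signals of different probe sets are not comparable, and all differences are on the log2 scale after centring each array on its median.

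The labels of 1 CbG and 1 CA3 array went against the markers. The array labelled CbG replicate 3 had a signal of 15.4 for *Gabra6*, a GABA-A receptor subunit of granule cells, against 3379.3 and 1282.9 in the other CbG arrays, and 6450.7 for *Nrgn*, neurogranin of forebrain pyramidal cells, against 21.8 and 24.5. The array labelled CA3 replicate 3 had 2567.6 for *Gabra6*, against 5.6 and 38.6 in the other CA3 arrays, and 49.2 for *Nrgn*, against 6293.6 and 7303.8. These marker genes were chosen after their values were seen. Over all probe sets, the CbG array in question correlated best with CA3 replicate 1 (r = 0.933) and the CA3 array in question best with CbG replicate 1 (r = 0.932). Each result is therefore given for the 12 arrays as labelled, for the 10 arrays without these 2, and for the 12 arrays with these 2 labels exchanged. Over the 10 arrays the summed signal of granule cell markers was 47220 to 54780 in CbG and 2498 to 3377 in the other regions, and that of CA1 pyramidal markers was 30160 to 36600 in CA1 and 474.1 to 6012 in the other regions. The array labelled CbG replicate 3 had a sum of 7864 for the CA1 markers. That is above the 2499 and 1300 of CA3 replicates 1 and 2, which it joins when the labels are exchanged.

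NADPH is the electron donor with which glutathione reductase and thioredoxin reductase keep the cell's peroxide-removing systems reduced, and it is also consumed in the synthesis of fatty acids and sterols. In the cytosol it comes from the oxidative steps of the pentose phosphate pathway, from NADP-dependent isocitrate dehydrogenase and from malic enzyme. Acetyl-CoA leaves mitochondria as citrate, which ATP citrate lyase splits into acetyl-CoA and oxaloacetate; malate dehydrogenase turns the oxaloacetate into malate, and malic enzyme turns malate into pyruvate with a gain of NADPH. In neurons, cytosolic acetyl-CoA also serves the synthesis of acetylcholine and the acetylation of proteins.

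The promoters of the 4 genes called between VUL and RES neurons over the 10 arrays are shown because these are the genes whose difference the results turn on. RefSeq sequences on build GRCr8, matched by symbol for all 8 genes, run from 250 bases before to 50 bases after the annotated start. Both strands were searched for the core of the antioxidant response element (TGACNNNGC, or GCNNNGTCA on the other strand), the E-box CACGTG and the CCAAT box (CCAAT or ATTGG), none of which overlapped another, and capitals mark the matches. The *Me1* window (chr8:96540195-96540494, minus strand) holds an antioxidant response element core 167 bases before the start, and the *Idh1* window (chr9:74049425-74049724, minus strand) holds one 83 bases before it. The *Acly* window (chr10:85963582-85963881, minus strand) holds a CCAAT box 71 bases before the start, and the *Taldo1* window (chr1:205922946-205923245, plus strand) holds one 57 bases before it.
Me1: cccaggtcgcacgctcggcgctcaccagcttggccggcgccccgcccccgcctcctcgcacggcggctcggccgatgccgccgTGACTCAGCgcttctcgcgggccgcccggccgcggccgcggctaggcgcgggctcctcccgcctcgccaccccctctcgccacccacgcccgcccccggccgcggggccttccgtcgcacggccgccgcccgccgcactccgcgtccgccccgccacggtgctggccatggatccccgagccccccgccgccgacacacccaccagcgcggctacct
Idh1: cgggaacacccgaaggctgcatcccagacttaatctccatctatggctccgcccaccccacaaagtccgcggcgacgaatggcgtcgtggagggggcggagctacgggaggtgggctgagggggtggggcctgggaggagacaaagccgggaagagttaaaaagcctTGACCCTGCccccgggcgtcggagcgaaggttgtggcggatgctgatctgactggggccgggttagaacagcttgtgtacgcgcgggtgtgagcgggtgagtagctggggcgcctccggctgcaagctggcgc
Acly: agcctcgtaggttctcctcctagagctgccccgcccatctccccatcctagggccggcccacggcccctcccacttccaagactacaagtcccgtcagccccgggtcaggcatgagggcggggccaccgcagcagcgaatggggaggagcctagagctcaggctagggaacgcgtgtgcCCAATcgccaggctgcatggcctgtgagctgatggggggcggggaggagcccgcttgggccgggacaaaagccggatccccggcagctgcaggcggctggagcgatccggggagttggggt
Taldo1: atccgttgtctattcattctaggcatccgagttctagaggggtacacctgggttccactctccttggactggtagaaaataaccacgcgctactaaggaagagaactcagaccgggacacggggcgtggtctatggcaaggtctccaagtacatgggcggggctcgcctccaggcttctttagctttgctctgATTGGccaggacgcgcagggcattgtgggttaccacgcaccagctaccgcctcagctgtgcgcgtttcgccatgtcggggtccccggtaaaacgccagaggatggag

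Of all 33469 promoter windows of this length, 12.1% hold the antioxidant response element core, 37.5% a CCAAT box and 6.42% the E-box. The other genes with a CCAAT box were *Idh2* (87 bases before the start), *Pgd* (31 bases) and *Mdh1* (203 bases). No window of the 8 genes holds the E-box, and that of *Tkt* holds none of the 3 motifs. These matches describe letters only, and no binding was measured.

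*Me1* encodes cytosolic malic enzyme, which yields NADPH from malate. Its mean signal was lower in VUL than in RES neurons once the 2 arrays against their labels were set aside, although CA1 and CTX were not called apart. For probe set 1370870_at, the CA1 arrays had signals of 470.9, 557.4 and 595.8 and the CbG arrays 322.2 and 384.4, against 673.0, 691.3 and 573.4 in CTX and 1637.9 and 1779.5 in CA3. Of the 2 arrays set aside, the one labelled CbG replicate 3 had 1490.0 and the array labelled CA3 replicate 3 had 208.2. CA3 was thus far above the other regions and CbG lowest, while the highest CA1 array passed the lowest CTX array. For probe set 1370067_at, CA1 had 211.6, 240.7 and 251.0 and CbG 139.6 and 86.0, against 330.2, 226.9 and 326.2 in CTX and 410.3 and 356.5 in CA3. In this probe set the array labelled CbG replicate 3 had 559.9 and the array labelled CA3 replicate 3 had 139.1. CA3 was again above CA1 and CbG, and CbG was lowest, with an overlap of CA1 and CTX. These signals are as deposited, whereas the fits used log2 signals less the log2 of each array's median, which was 147.7 to 161.3 in CA1 and 187 to 199.3 in CTX. On that centred scale CA1 and CTX were interleaved for both probe sets. For 1370870_at CA1 had 1.574, 1.789 and 2.012, against 1.79, 1.886 and 1.525 in CTX. For 1370067_at CA1 had 0.42, 0.58 and 0.765, against 0.763, 0.279 and 0.711 in CTX.

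VUL minus RES over the 10 arrays was -1.22 ± 0.16 for *Me1* 1370870_at (SE; limma adjusted p = 0.000212, 2.34-fold lower) and -1.01 ± 0.16 for 1370067_at (adjusted p = 0.000752). Both were called without any single replicate number or array (13 of 13 such fits). Exchanging the labels gave differences of -1.275 ± 0.14 (adjusted p = 3.46e-05) and -1.005 ± 0.13 (adjusted p = 0.000115). With the arrays as labelled they were -0.34 and -0.35, and neither was called.

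*Idh1* encodes the NADP-dependent isocitrate dehydrogenase of cytosol and peroxisomes. Its signals were 1235.6, 1003.3 and 1141.4 in CA1 and 1126.8 and 1119.6 in CbG, against 2009.6, 1937.6 and 1879.3 in CTX and 1743.7 and 1520.2 in CA3. Signals of 1844.5 and 824.7 came from the arrays labelled CbG replicate 3 and CA3 replicate 3. The groups did not overlap over the 10 arrays or with the labels exchanged. VUL minus RES was -0.62 ± 0.15 over the 10 arrays (SE; limma adjusted p = 0.01, 1.54-fold lower) and -0.68 ± 0.13 with the labels exchanged (adjusted p = 0.0014), against -0.30 as labelled (not called). The call over the 10 arrays was lost without the arrays numbered 1 (-0.58, adjusted p = 0.103), without CA1 replicate 2 (-0.55) or without CbG replicate 1 (-0.55), where the size fell under 1.5-fold. It was also lost with no filter on low signals (adjusted p = 0.0928). With the labels exchanged it held in all 15 fits that left out a number or an array.

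*Idh2* encodes the mitochondrial NADP-dependent isocitrate dehydrogenase. Its signals were 756.0, 791.5 and 641.5 in CA1 and 1314.7 and 1478.0 in CbG, against 1252.1, 889.0 and 1579.0 in CTX and 751.9 and 292.4 in CA3. In the array labelled CbG replicate 3 it had 786.9, and the array labelled CA3 replicate 3 had 1063.6. The 2 groups overlapped widely. VUL minus RES was 0.46 ± 0.22 over the 10 arrays (limma adjusted p = 0.149) and 0.32 with the labels exchanged (adjusted p = 0.255).

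The called differences of *Idh2* lay between CA3 and other regions. CbG minus CA3 was 1.34 ± 0.34 over the 10 arrays (SE; limma adjusted p = 0.00769) and 1.05 with the labels exchanged (adjusted p = 0.00779). CTX minus CA3 was 0.95 (adjusted p = 0.0431) and, with the labels exchanged, 0.79 (adjusted p = 0.0413). Much of this rested on CA3 replicate 2, with a signal of 292.4: without it, CbG minus CA3 was 0.73 (adjusted p = 0.168) and CTX minus CA3 was 0.33 (adjusted p = 0.556) over the 10 arrays, and neither was called. Without that array and with exchanged labels they were 0.64 (adjusted p = 0.0552) and 0.38 (adjusted p = 0.268). CbG minus CA3 was also lost over the 10 arrays without CbG replicate 2 (0.90, adjusted p = 0.0918) and without the arrays numbered 2 (0.55, adjusted p = 0.228), and CTX minus CA3 was called in 4 of 13 such fits.

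Within an array, the log2 ratio of the *Idh1* to the *Idh2* signal was 0.71, 0.34 and 0.83 in CA1, -0.22 and -0.40 in CbG, 0.68, 1.12 and 0.25 in CTX and 1.21 and 2.38 in CA3. In the array labelled CbG replicate 3 it was 1.23 and in the array labelled CA3 replicate 3 it was -0.37. The ratio itself depends on the probes, so only its change between regions can be read. With the labels exchanged it averaged 0.63 ± 0.25 in CA1, -0.33 ± 0.09 in CbG, 0.69 ± 0.44 in CTX and 1.61 ± 0.67 in CA3 (SD, n = 3 each). The 2 isoforms thus changed unequally between CbG and CA3.

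*Taldo1* encodes transaldolase, which returns pentose phosphates to glycolysis in the non-oxidative branch of the pentose phosphate pathway. It was the one gene of the 8 called higher in VUL than in RES. Over the 10 arrays CA1 was called above CTX and CA3, whereas CbG was called above neither. Its signals were 2577.0, 2674.0 and 2835.2 in CA1 and 1683.0 and 1486.0 in CbG, against 1617.2, 1227.9 and 1262.6 in CTX and 1520.6 and 1217.7 in CA3. For this gene the array labelled CbG replicate 3 had 1321.8 and the array labelled CA3 replicate 3 had 1423.2. All CA1 arrays lay above all others in each of the 3 arrangements, while CbG overlapped CA3. CbG also overlapped CTX in these signals but not on the centred log2 scale, where the CbG arrays of the 10 had 3.166 and 3.154, against 2.663 to 3.055 in CTX.

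VUL minus RES of *Taldo1* was 0.65 ± 0.15 over the 10 arrays (SE; limma adjusted p = 0.0088, 1.56-fold higher), 0.67 ± 0.12 with the labels exchanged (adjusted p = 0.0014) and 0.62 ± 0.13 as labelled (adjusted p = 0.151). The call over the 10 arrays was lost without the arrays numbered 3, without CA1 replicate 3 or without CTX replicate 3, each at 0.57 and under 1.5-fold, without CA3 replicate 2 (0.62, adjusted p = 0.052), and with no filter (adjusted p = 0.0911). With exchanged labels it was lost without the arrays numbered 3 (0.57). CA1 minus CTX, which does not involve the 2 arrays, was 1.30 ± 0.19 over the 10 arrays (adjusted p = 0.00038) and 1.30 as labelled (adjusted p = 0.0125); relative to the median of all probe sets, which was itself 0.32, it was 0.98. CA1 minus CbG was 0.95 over the 10 arrays (adjusted p = 0.00487). Both calls held in 13 of 13 fits that left out a number or an array of the 10, but the second was not made with no filter (adjusted p = 0.0502). CbG minus CTX was 0.35 (limma adjusted p = 0.266) and CbG minus CA3 was -0.0111 (adjusted p = 0.975) over the 10 arrays, and neither was called.

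*Tkt* encodes transketolase of the same branch. Its signals were 524.3, 806.7 and 806.7 in CA1 and 977.2 and 1432.5 in CbG, against 920.5, 817.6 and 832.2 in CTX and 771.0 and 711.2 in CA3, with 836.1 in the array labelled CbG replicate 3 and 1086.2 in the array labelled CA3 replicate 3. CbG lay above CTX in both arrays, whereas VUL and RES overlapped. VUL minus RES was 0.24 ± 0.18 over the 10 arrays (limma adjusted p = 0.359). CbG minus CTX was 0.65 ± 0.26 over the 10 arrays (adjusted p = 0.0885) and 0.61 ± 0.21 with the labels exchanged (adjusted p = 0.0351), a call that held in 9 of 15 fits that left out a number or an array. It was lost without the arrays numbered 2 (0.43) or 3 (0.56), the array labelled CA3 replicate 3 (0.64), CbG replicate 2 (0.45), CTX replicate 2 (0.52) or CTX replicate 3 (0.51).

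*Pgd* encodes 6-phosphogluconate dehydrogenase, an NADPH-yielding step of the oxidative branch. Its signals were 220.3, 106.9 and 170.0 in CA1 and 254.7 and 209.6 in CbG, against 237.9, 270.1 and 203.3 in CTX and 215.9 and 372.2 in CA3, with 300.3 in the array labelled CbG replicate 3 and 178.1 in the array labelled CA3 replicate 3. The CA1 arrays alone ranged between 106.9 and 220.3, and the groups overlapped. VUL minus RES was -0.39 ± 0.24 over the 10 arrays (limma adjusted p = 0.267) and -0.42 with the labels exchanged (adjusted p = 0.133).

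*Acly* encodes ATP citrate lyase, which makes cytosolic acetyl-CoA from citrate. Its signals were 1406.8, 1723.0 and 1619.8 in CA1 and 751.7 and 772.4 in CbG, against 2107.9, 2797.6 and 2326.9 in CTX and 2223.6 and 1842.5 in CA3. A signal of 2077.4 was found in the array labelled CbG replicate 3, while the array labelled CA3 replicate 3 had 537.7. As deposited, the VUL and RES signals of the 10 arrays did not overlap, but on the centred log2 scale CA1 replicate 3 (3.455) passed CTX replicate 1 (3.437). Within VUL the CbG arrays lay far under those of CA1 on both scales.

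VUL minus RES of *Acly* was -0.96 ± 0.15 over the 10 arrays (SE; limma adjusted p = 0.000903, 1.95-fold lower) and -1.01 ± 0.13 with the labels exchanged (adjusted p = 0.000104), against -0.37 as labelled (not called). It was called in 13 of 13 fits that left out a number or an array of the 10, and with no filter. CbG minus CTX was -1.51 ± 0.22 over the 10 arrays (adjusted p = 0.000463) and -1.64 with the labels exchanged (adjusted p = 1.95e-05). CA1 minus CA3 was -0.41 over the 10 arrays (adjusted p = 0.292) and -0.38 with the labels exchanged (adjusted p = 0.205).

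The difference between these 2 pairs of regions, CA1 minus CA3 less CbG minus CTX, was tested for each probe set. For *Acly* it was 1.105 ± 0.33 over the 10 arrays (SE; limma adjusted p = 0.0436), and 14.9% of all probe sets tested were called in this comparison. The call was kept in 1 of 13 fits that left out a number or an array, the one without CA3 replicate 1, and the value ranged between 0.76 and 1.45. Exchanging the labels gave 1.255 ± 0.26 (adjusted p = 0.00372; 24.1% of all called), lost without the arrays numbered 3 (1.105, adjusted p = 0.0548), and as labelled the difference was not called (2.07% of all were). The sum of CbG and CA3 enters this difference, so that the exchange leaves its value as it is and changes only its error. For *Me1* 1370870_at it was -0.97 ± 0.34 over the 10 arrays (adjusted p = 0.0771), and no other of the 10 probe sets was called.

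*Mdh1* encodes cytosolic malate dehydrogenase of the malate-aspartate shuttle. Probe set 1367653_a_at had signals of 9967.7, 10817.6 and 10933.3 in CA1 and 8831.0 and 11751.9 in CbG, against 10550.9, 10894.4 and 7766.6 in CTX and 11871.9 and 14414.1 in CA3. The array labelled CbG replicate 3 had 13926.2 and the array labelled CA3 replicate 3 had 7927.6. The arrays of the groups were interleaved, and over the 10 arrays VUL minus RES was -0.07 ± 0.17 (limma adjusted p = 0.798). Probe set 1372790_at ranged between 6351.6 and 9403.6 in VUL and between 7074.0 and 8748.9 in RES over the 10 arrays (8168.2 and 6370.4 in the arrays labelled CbG replicate 3 and CA3 replicate 3), with a difference of -0.07 ± 0.15 (adjusted p = 0.78). CTX minus CA3 of 1367653_a_at was -0.74 over the 10 arrays (adjusted p = 0.0361), held in 4 of 13 fits that left out a number or an array, and was -0.80 with the labels exchanged (adjusted p = 0.00688). There it was lost without the arrays numbered 3 (-0.62, adjusted p = 0.0706) or CTX replicate 3 (-0.62, adjusted p = 0.0515). All probe sets had a median of -0.35 in this pair over the 10 arrays, and relative to it 1367653_a_at was at -0.39. Probe set 1372790_at was not called in this pair, at -0.58 over the 10 arrays (limma adjusted p = 0.0648). With the labels exchanged it was at -0.49, which is under 1.5-fold.

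**Figure D1:**
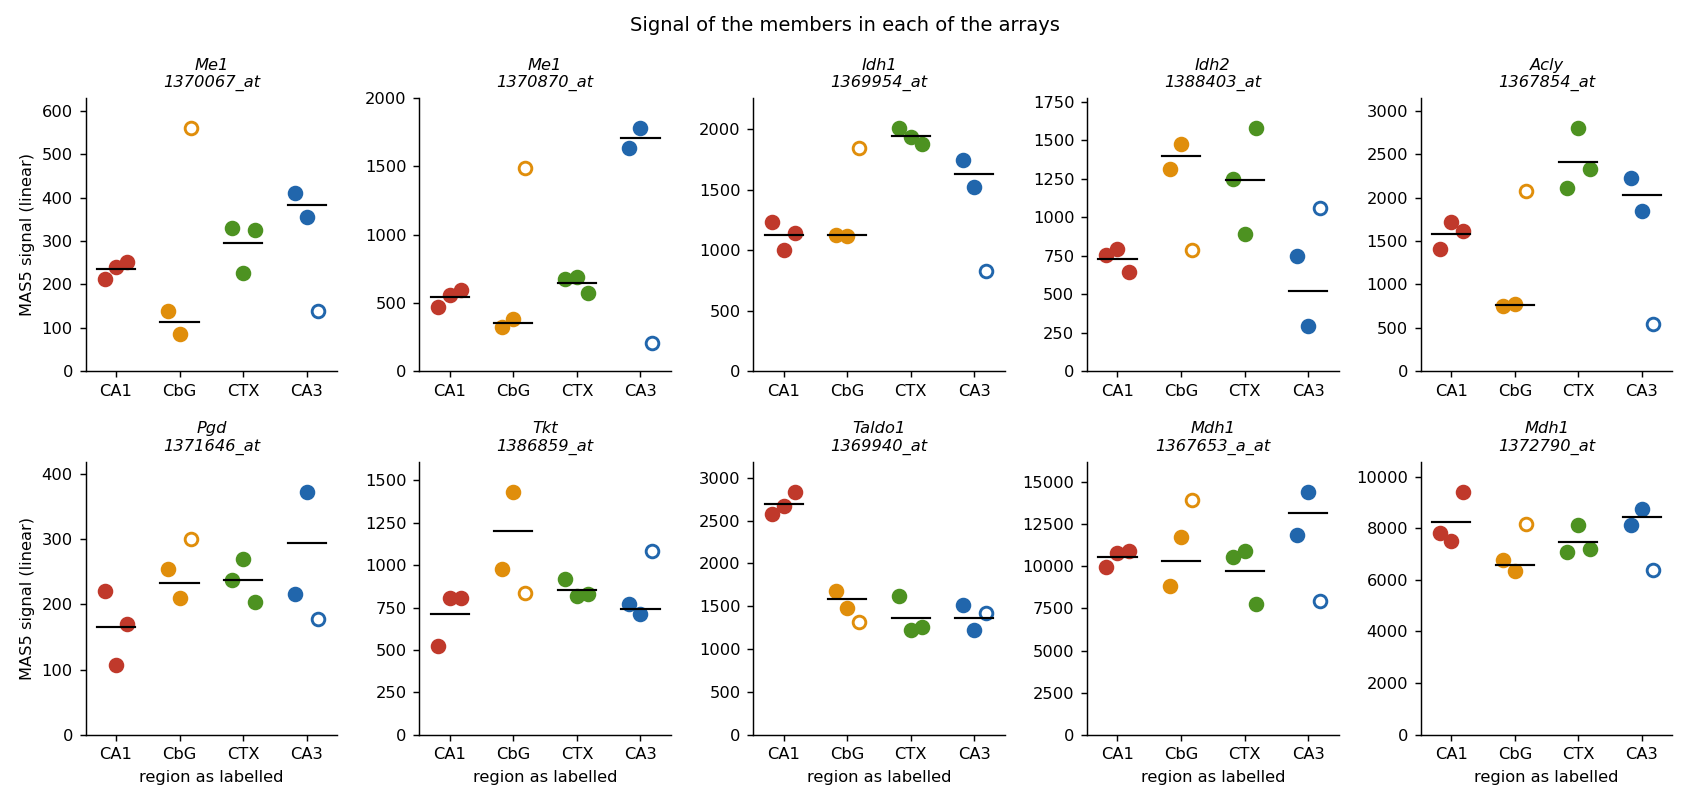
MAS5 signal (linear, y axis) of each tested probe set in every array, by region as labelled (x axis). Each point is 1 array, with open circles for CbG replicate 3 and CA3 replicate 3 as labelled, and lines are means over the other arrays of a region; *Taldo1* stands out in CA1 (2577.0 to 2835.2), and *Me1* 1370870_at in CA3 (1637.9 and 1779.5 in the filled points).

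Across the 8 genes, VUL minus RES therefore depended on the arrangement. Over the 10 arrays, 5 of 10 probe sets were called, 4 lower (*Me1* with both, *Idh1*, *Acly*) and 1 higher (*Taldo1*), and with the labels exchanged the same 5 were called. Of all probe sets tested, 17.8% were called over the 10 arrays (9.23% lower, 8.58% higher) and 18.4% with the labels exchanged (8.29% lower, 10.1% higher). As labelled, 0 of 10 and 0% of all were called by limma. There, 1 of 10 (*Taldo1*) and 740 of all 7535 had an unadjusted p under 0.05, and the smallest adjusted p of all probe sets was 0.0678. A paired test as in the methods called 1 of 10 at an unadjusted threshold and 0 after Benjamini-Hochberg adjustment. The median difference of the 10 was -0.23 over the 10 arrays, against 0.04 for all probe sets, and -0.05 as labelled, against 0.07.

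**Figure D2:**
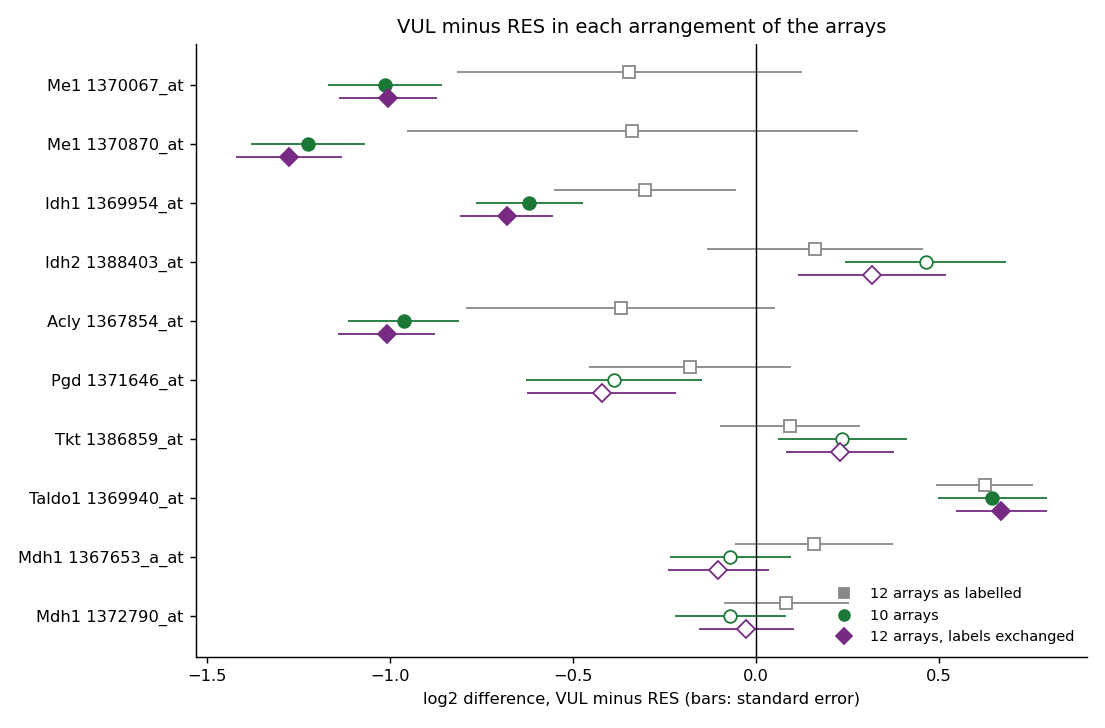
Log2 difference VUL minus RES (x axis) of the 10 probe sets for the 3 arrangements of the arrays, with standard errors as bars and filled points where called. *Acly* is -0.96 over the 10 arrays, -1.01 with the labels exchanged and -0.37 as labelled, while *Taldo1* stays between 0.62 and 0.67.

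Within the hippocampus, CA1 minus CA3 called 3 of 10 probe sets over the 10 arrays, where 10.5% of all were called. *Me1* was lower in CA1 at -1.71 ± 0.23 for 1370870_at (SE; limma adjusted p = 0.000708) and -0.83 ± 0.23 for 1370067_at (adjusted p = 0.0404), and *Taldo1* was higher at 0.94 ± 0.22 (adjusted p = 0.0183). The first held in 13 of 13 fits that left out a number or an array but not with no filter (adjusted p = 0.0628). The second held in 2 of 13 such fits, those without CbG replicate 1 or CbG replicate 2, and was -0.90 with the labels exchanged (adjusted p = 0.00599). *Taldo1* held in 8 of 13 and was lost without the arrays numbered 1 (1.05) or 2 (0.91), CA1 replicate 2 (0.94), CA3 replicate 1 (0.99) or CA3 replicate 2 (0.89). With the labels exchanged 4 were called (13.4% of all), *Idh1* being the fourth at -0.61 (adjusted p = 0.0395, held in 3 of 15 such fits). As labelled 0 were called (1.29% of all), 1 had an unadjusted p under 0.05, and *Taldo1* was at 0.94 (adjusted p = 0.0533).

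Between cerebellum and cortex, CbG minus CTX called 4 of 10 probe sets over the 10 arrays, all lower in CbG, where 26.1% of all were called and 12.2% were lower. *Acly* led, followed by *Me1* 1370067_at at -1.20 ± 0.23 (SE; limma adjusted p = 0.00276), *Me1* 1370870_at at -0.74 ± 0.23 (adjusted p = 0.0337) and *Idh1* at -0.66 ± 0.22 (adjusted p = 0.0429). *Acly* and *Me1* 1370067_at held in 13 of 13 fits that left out a number or an array. *Me1* 1370870_at held in 7 and was lost without the arrays numbered 1 (-0.54) or 2 (-0.83), CbG replicate 1 (-0.62), CbG replicate 2 (-0.86), CTX replicate 1 (-0.58) or CTX replicate 2 (-0.71). *Idh1* held in 2 of 13, but in 14 of 15 with the labels exchanged (-0.76, adjusted p = 0.00527). With the labels exchanged 5 were called (33.9% of all), *Tkt* being the fifth. As labelled 0 were called (0.624% of all) and 0 had an unadjusted p under 0.05.

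**Figure D3:**
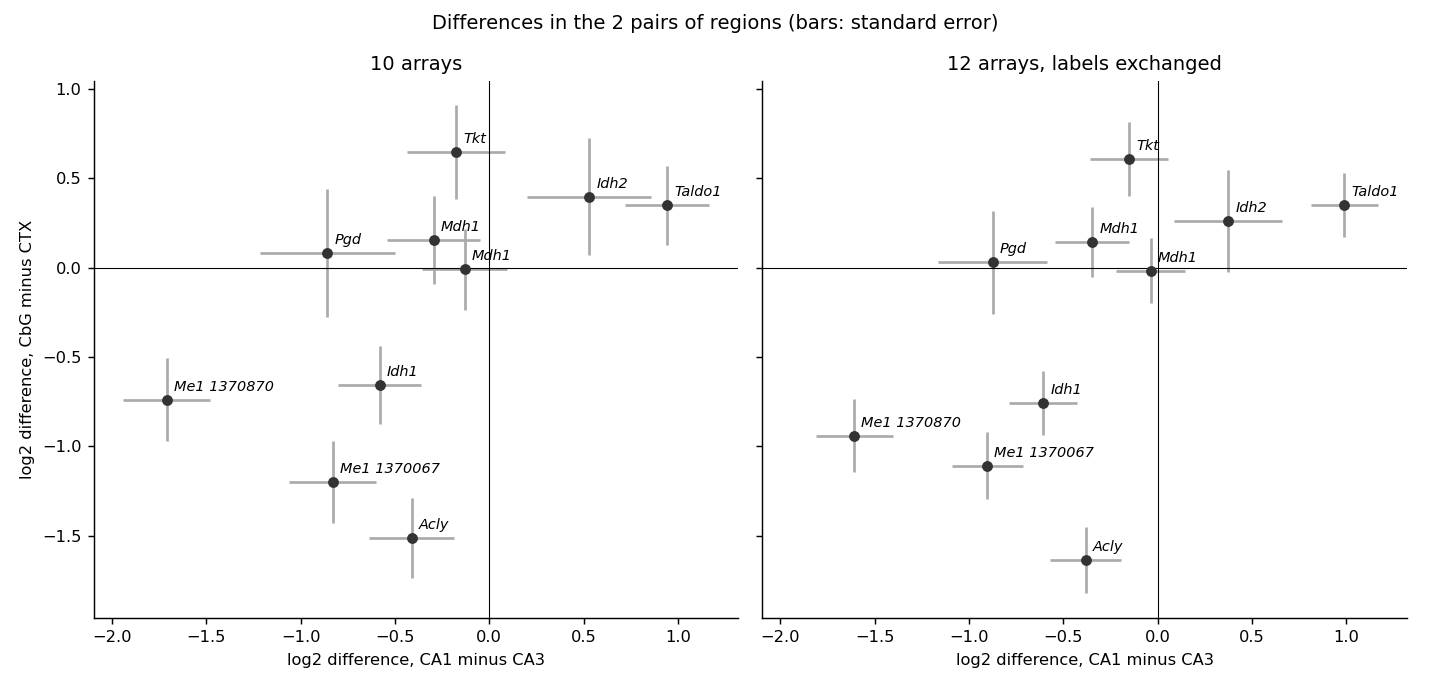
Log2 difference CA1 minus CA3 (x axis) against CbG minus CTX (y axis) of the 10 probe sets, over the 10 arrays and with the labels exchanged, with standard errors as bars. *Acly* lies far down (-1.51 against -0.41 over the 10 arrays), *Me1* 1370870_at far left (-1.71 against -0.74), and *Taldo1* right (0.94).

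Among the other region pairs, CbG minus CA3 called 5 of 10 over the 10 arrays, beside 43.1% of all probe sets (45.5% with the labels exchanged). *Me1* was lowest there at -2.51 for 1370870_at (limma adjusted p = 9.46e-06) and -2.03 for 1370067_at (adjusted p = 4.5e-05), *Acly* was at -1.64 (adjusted p = 0.000189) and *Idh1* at -0.76 (adjusted p = 0.0175), with *Idh2* higher. Of these calls, *Me1* with both probe sets and *Acly* held in 13 of 13 fits that left out a number or an array. *Idh1* was lost without the arrays numbered 1 (-0.64), CA3 replicate 1 (-0.75), CA3 replicate 2 (-0.78) or CbG replicate 1 (-0.62), and *Idh2* without the arrays numbered 2 (0.55), CA3 replicate 2 (0.73) or CbG replicate 2 (0.90). With no filter *Idh1* (adjusted p = 0.0877) and *Idh2* (adjusted p = 0.0976) were not called. All probe sets together had a median of -0.23 in this pair. In CA1 minus CTX only *Taldo1* was called, beside 34.2% of all over the 10 arrays and 6.37% as labelled. All probe sets together had a median of 0.32 in this pair over the 10 arrays. Relative to it *Idh1* was at -0.80, *Idh2* at -0.74, *Acly* at -0.61, *Pgd* at -0.57 and *Tkt* at -0.30. *Me1* was at -0.26 for 1370870_at and -0.32 for 1370067_at, and *Mdh1* was at 0.13 with both probe sets. Differences relative to the median were not tested, so the lack of a call does not show equal levels. CA1 minus CbG called *Me1* with both probe sets, *Acly* and *Taldo1*, all higher in CA1, beside 39.1% of all over the 10 arrays. There *Me1* 1370870_at was lost without the arrays numbered 1 (0.73) or CbG replicate 1 (0.68), and with no filter (adjusted p = 0.0966). In CTX minus CA3, which called 33.7% of all over the 10 arrays and 36% with the labels exchanged, *Me1* 1370870_at was at -1.77 (adjusted p = 0.000343), or -1.42 relative to the median of all probe sets of -0.35, and *Idh2* relative to it was at 1.30. *Me1* 1370067_at was at -0.83 (limma adjusted p = 0.018), or -0.48 relative to that median. Its call held in 8 of 13 fits that left out a number or an array, and was lost with no filter (adjusted p = 0.12). With the labels exchanged it was at -0.91 and held in 15 of 15 such fits. On the centred log2 scale the region mean of *Me1* was highest in CA3 and lowest in CbG for both probe sets. CA1 and CTX lay between them and were not called apart, with CA1 minus CTX at 0.058 for 1370870_at (adjusted p = 0.829) and 0.0031 for 1370067_at (adjusted p = 0.991) over the 10 arrays. A moderated F test over the 4 regions called 6 of 10 over the 10 arrays (60.7% of all), 8 with the labels exchanged (67.6% of all) and 1, *Taldo1*, as labelled (adjusted p = 0.0275; 3.24% of all).

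Marker signals of the captured and of other cell types differed between regions, and not all of them followed VUL and RES. Over the 10 arrays 6 of 6 tested oligodendrocyte markers were called lower in VUL, with summed signals of 5196 to 8030 in CA1, 15300 to 18670 in CbG, 32120 to 46900 in CTX and 11800 to 15220 in CA3. Of the forebrain pyramidal markers 6 of 6 were called lower. Their sums were 31000 to 33930 in CA1, 10530 and 11770 in CbG, 30420 to 36530 in CTX and 34750 and 42580 in CA3. Only CbG was thus low, and CA1 lay within the range of CTX. Of the granule cell markers 4 of 5 were called higher. Of all probe sets tested, 17.8% were called in VUL minus RES over the 10 arrays. Astrocyte markers summed to 13920 to 18830 in CA1, 34260 to 50590 in CbG, 25800 to 42660 in CTX and 11570 to 19350 in CA3, and 3 of 9 were called higher. Purkinje cell markers were called higher for 3 of 3 tested in VUL minus RES, CA1 minus CA3 and CbG minus CTX alike, with sums of 8217 to 8845 in CA1, 16060 and 37460 in CbG, 4345 to 5631 in CTX and 3929 and 4016 in CA3. With the labels exchanged 1 of 3 was called in VUL minus RES and 0 in each of these 2 pairs. The array labelled CA3 replicate 3 had a sum of 2776. Whether hippocampal neurons also express these genes was not tested. Of the inhibitory interneuron markers 2 of 4 were called lower in VUL, with sums of 7580 to 9034 in CA1, 5179 and 8257 in CbG, 11900 to 16090 in CTX and 3767 and 5032 in CA3. Endothelial markers were called lower for 1 of 2, with sums of 732.5 to 1046 in CA1, 1272 and 2062 in CbG, 2108 to 3126 in CTX and 963.7 and 1156 in CA3. Neither of the 2 microglial markers tested was called, and their sums were 1040 to 1849 in CA1, 2190 and 2400 in CbG, 3321 to 7725 in CTX and 875.6 and 2140 in CA3. With the labels exchanged 0 of 3 endothelial markers were called in VUL minus RES, and apart from the Purkinje list the other counts in that contrast were unchanged. The part of these cell types in the results was not tested.

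The probe sets most like *Me1* 1370870_at over the 12 arrays, by the root mean square difference of centred log2 signals and with no group label used, were those of *Gyg1* (0.267), *Me3* (0.298), *Sec14l2* (0.308), *Dnajc15* (0.346) and *Nefl* (0.348). Over 6321 probe sets ranked the median of this measure was 0.982, and for the other *Me1* probe set it was 0.511. *Gyg1*, the glycogenin that primes glycogen synthesis, had signals of 1647.7, 1289.2 and 1354.3 in CA1 and 685.2 and 779.9 in CbG, against 1566.1, 1663.2 and 1275.5 in CTX and 4838.6 and 4830.1 in CA3. It had 4954.4 in the array labelled CbG replicate 3 and 393.2 in the array labelled CA3 replicate 3, the same pattern of high CA3 and low CbG.

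**Figure D4:**
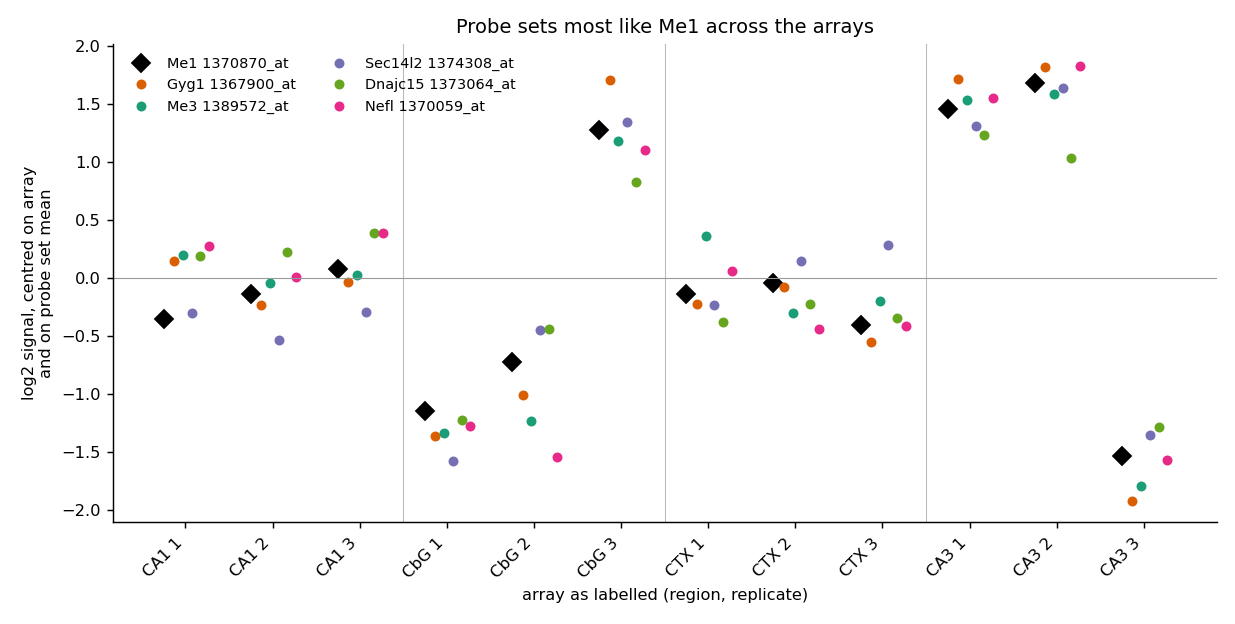
Log2 signal, centred on the array median and on the mean of each probe set (y axis), of *Me1* 1370870_at and the 5 probe sets most like it, in each array as labelled (x axis). High signals of all 6 lie in CA3 1, CA3 2 and CbG 3, and low ones in CbG 1, CbG 2 and CA3 3.

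The rest of the pathway was followed in lists that leave out the 8 genes. The counts stand beside 17.8% of all probe sets called between VUL and RES over the 10 arrays and 18.4% with the labels exchanged. Among other producers of NADPH and NAD kinases 4 genes were tested, and 1, *Me3*, was called lower in VUL over the 10 arrays. *Me3*, the mitochondrial NADP-dependent malic enzyme, had signals of 805.5, 697.4 and 667.5 in CA1 and 329.8 and 315.7 in CbG, against 1111.9, 674.6 and 774.7 in CTX and 2020.9 and 1946.4 in CA3. In CA1 and CTX the signals overlapped, whereas CA3 was highest and CbG lowest. Its VUL minus RES was -1.37 over the 10 arrays (limma adjusted p = 0.000112) and -1.39 with the labels exchanged (adjusted p = 1.16e-05), and it held in 13 of 13 fits that left out a number or an array. Of 6 further pentose phosphate genes (7 probe sets) 0 were called between VUL and RES by limma in each arrangement, and 4 probe sets had an unadjusted p under 0.05 over the 10 arrays.

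Of 16 genes of the citrate cycle (18 probe sets) 1 was called between VUL and RES over the 10 arrays, beside 17.8% of all probe sets. This was *Idh3a*, a subunit of the NAD-dependent isocitrate dehydrogenase. It was at -0.61 (limma adjusted p = 0.00817) and at -0.59 with the labels exchanged (adjusted p = 0.00195). The first call was lost without the arrays numbered 1 (-0.61, adjusted p = 0.0797), CA1 replicate 1 (-0.58) or CbG replicate 2 (-0.56). *Idh3g*, another subunit of this enzyme, chosen after its values were seen, was higher in CbG than in CTX by 0.93 over the 10 arrays (adjusted p = 0.00772). Its signals were 5717.8 and 7176.2 in CbG, against 3332.8, 4009.5 and 3740.5 in CTX, while *Idh3a* had 791.6 and 777.9 in CbG, against 1233.4, 1509.9 and 1482.1 in CTX. Over the 10 arrays the call of *Idh3g* in this pair was lost without the arrays numbered 2 (0.83) or CbG replicate 2 (0.77), and with no filter (adjusted p = 0.0744). That of *Idh3a*, at -0.67 (adjusted p = 0.0317), was lost without the arrays numbered 1 (-0.78) or 2 (-0.55), CbG replicate 2 (-0.57), CTX replicate 1 (-0.69) or CTX replicate 2 (-0.63), and with no filter (adjusted p = 0.135). Of 7 genes of citrate export and the malate-aspartate shuttle (8 probe sets) 0 were called between VUL and RES by limma in each arrangement, and 1 had an unadjusted p under 0.05 over the 10 arrays.

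Of 10 genes from a list drawn up around cytosolic acetyl-CoA (12 probe sets) 2 were called lower in VUL over the 10 arrays. Of all probe sets tested, 9.23% were called lower there. Not every gene of this list uses acetyl-CoA, since it also holds fatty acyl-CoA synthetases and *Acss2*. *Acat2*, the cytosolic acetoacetyl-CoA thiolase at the start of sterol synthesis, had signals of 163.9, 205.2 and 141.0 in CA1 and 167.2 and 180.6 in CbG, against 336.7, 352.4 and 331.2 in CTX and 493.5 and 518.7 in CA3. The groups did not overlap over the 10 arrays. Its difference was -1.24 (limma adjusted p = 8.72e-05), held in 13 of 13 fits that left out a number or an array and with no filter, and it was -1.30 with the labels exchanged. *Acsl4*, a fatty acyl-CoA synthetase, was at -0.64 (adjusted p = 0.0087), was lost without the arrays numbered 2 (-0.50) or CA3 replicate 2 (-0.52), and was not called with the labels exchanged.

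*Acss2*, which makes acetyl-CoA from acetate and was chosen after its values were seen, had called differences of opposite sign in the 2 pairs. Its signals were 790.1, 948.7 and 1071.9 in CA1, against 1991.8 and 1783.1 in CA3, and 2654.9 and 2637.9 in CbG, against 1525.1, 1812.8 and 1704.6 in CTX. CA1 minus CA3 was -1.13 (limma adjusted p = 0.00688) and CbG minus CTX 0.85 (adjusted p = 0.0142) over the 10 arrays. *Acly*, another source of cytosolic acetyl-CoA, was lower in CbG than in CTX over the same arrays. As labelled, CA1 minus CA3 of *Acss2* was -1.24 (adjusted p = 0.0457), and with the labels exchanged the 2 differences were -1.02 and 0.88, both called. The CA1 minus CA3 call over the 10 arrays was lost without the arrays numbered 1 (-0.94), CA1 replicate 1 (-1.03) or CA3 replicate 1 (-0.99). The CbG minus CTX call was lost without the arrays numbered 1 (0.83), CbG replicate 2 (0.86) or CTX replicate 1 (0.86). With no filter neither was called over the 10 arrays (limma adjusted p = 0.113 for CA1 minus CA3 and 0.103 for CbG minus CTX).

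Of 8 genes that spend NADPH in reduction 1 was called lower in VUL over the 10 arrays, beside 9.23% of all probe sets. This was *Dhcr7*, the last enzyme of cholesterol synthesis by the Kandutsch-Russell route. Its signals were 330.4, 363.3 and 424.2 in CA1 and 196.0 and 302.7 in CbG, against 495.5, 544.1 and 421.6 in CTX and 625.7 and 573.7 in CA3. The CA1 and CTX arrays overlapped. The difference was -0.80 over the 10 arrays (limma adjusted p = 0.00738) and -0.72 with the labels exchanged (adjusted p = 0.005), and without the arrays numbered 1 it was -0.54 (adjusted p = 0.13) over the 10 arrays. As labelled, 0 genes of these lists were called between VUL and RES by limma, and an unadjusted p under 0.05 was found for 2 probe sets of the citrate cycle and 2 of the list around acetyl-CoA.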

How the data were processed

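RNA of captured neurons was measured on 12 RAE230A arrays, 3 per region. The authors deposited MAS5 signal intensities on a linear scale; according to the paper's methods they were scaled in GCOS to 1 target per array, and the version of MAS5 is not given in the sources used here. Probe sets were named by the array's gene table (12783 with 1 symbol, 312 with several, updated by Entrez ID for 12754). The 57 controls were left out, and tests were run on probe sets brighter than the median (50th percentile) of their array on 8 or more of 12 arrays (7535), or on 7 or more of 10 (7463).

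The log2 of each deposited intensity, less its array's median, entered a linear model of region and replicate number (a block) in limma 3.58.1 (R 4.3.3), since the methods describe the 4 populations as taken from each animal and use a paired test. Deviations of same-numbered arrays from their region means correlated at -0.0613 on average as labelled (18 pairs, -0.887 to 0.19) and at 0.0856 with the labels exchanged. Pairs with different numbers averaged -0.10 as labelled and -0.155 exchanged. These include pairs within a region, whose deviations from a shared mean are negatively related by construction. Contrasts were VUL minus RES, the region pairs, the difference between CA1 minus CA3 and CbG minus CTX, and a moderated F test; the calls were tested on simulated data. Alternatives were other centring, scaling, filters, priors and added intensities, no block, the methods' paired test, and leaving out each number and array.

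The 8 genes and the lists were chosen with earlier results of these data known. Named are the 8 genes, list genes called between VUL and RES over the 10 arrays or with the labels exchanged (up to 4 a list), and the 5 probe sets most like *Me1*; others were chosen after their values were seen. Detection calls were not used here. Plots were made with Python 3.11.15 and matplotlib 3.10.9.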

Additional observations from a re-analysis of the deposited data

Results flagged for a closer look

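With the arrays as labelled, the array labelled CbG replicate 3 stood apart from the other 5 arrays of the VUL group in 3 of the 10 probe sets, by the size of its gap to the nearest of them. *Me1* 1370067_at had a signal of 559.9 there, against 86.0 to 251.0 in the others, *Me1* 1370870_at had 1490.0, against 322.2 to 595.8, and *Idh1* had 1844.5, against 1003.3 to 1235.6. In all, 66 groups of values were looked at in this way and 3 stood apart; chance gives about 1 in 20.

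The difference of *Acly* between its regions was called unequal in the 2 pairs over the 10 arrays and with the labels exchanged, but not as labelled. Of all probe sets, 14.9% and 24.1% were called in these 2 arrangements. The call over the 10 arrays was kept in 1 of 13 fits that left out a number or an array, and lost with no filter (limma adjusted p = 0.201). With the labels exchanged it was lost without the arrays numbered 3. CA1 minus CA3 less CbG minus CTX was 1.105 over the 10 arrays and 1.255 with the labels exchanged, with limma adjusted p of 0.0436 and 0.00372.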

How the results depend on the processing

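As labelled, the number of the 10 probe sets called in VUL minus RES was 0, and 1 by the methods' paired test (0 after Benjamini-Hochberg adjustment), 5 over the 10 arrays and 5 with the labels exchanged. In CA1 minus CA3 it was 0, and 1 without centring, with 50 added to each signal, for probe sets above the median in every array, with no replicate block and with a trend or robust prior, 3 over the 10 arrays and 4 exchanged. In CbG minus CTX it was 0, 4 over the 10 arrays and 5 exchanged, and for the difference of the pairs 0, 1 and 1. The F test over regions called 1, but 0 after quantile normalization or without a filter, 6 over the 10 arrays and 8 exchanged. Of the 6 region pairs together 2 calls were made, 1 after quantile normalization, 0 without a filter, 21 over the 10 arrays and 25 exchanged. *Mdh1* changed sign: 1367653_a_at was 0.16 as labelled, -0.0701 over the 10 arrays and -0.10 exchanged, and 1372790_at was 0.08, -0.0703 over the 10 arrays, -0.0265 exchanged and, after quantile normalization, -0.0414.

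Over the 10 arrays, leaving out the filter gave 3 calls in VUL minus RES in place of 5, 0 in CA1 minus CA3 in place of 3, 1 in CbG minus CTX in place of 4, 0 for the difference of the pairs in place of 1, and 8 in place of 21 for the region pairs. The paired test called 3, or 0 after adjustment. With no replicate block 2 probe sets were called for the difference of the pairs; in VUL minus RES the fit without the pairing called 5 over the 10 arrays and 0 as labelled.

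Leaving out 1 number or array gave 0 to 4 calls in VUL minus RES as labelled (4 to 6 over the 10 arrays), 0 to 2 (1 to 3) in CA1 minus CA3, 0 to 4 (2 to 4) in CbG minus CTX, 0 to 6 (4 to 8) in the F test, 0 to 0 (0 to 1) for the difference of the pairs and 0 to 18 (14 to 20) for the region pairs. The sign of VUL minus RES turned as labelled for *Me1* (-1.03 to 0.0204 for 1370067_at, -1.33 to 0.20 for 1370870_at), *Idh2* (-0.30 to 0.58), *Pgd* (-0.50 to 0.27), *Tkt* (-0.11 to 0.25) and *Mdh1* (-0.19 to 0.35 and -0.16 to 0.27). Over the 10 arrays it turned for *Idh2* (-0.0496 to 0.86), *Pgd* (-0.75 to 0.0812) and *Mdh1* (-0.19 to 0.0355 and -0.16 to 0.0532). The cause of these changes was not tested.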
